A study of Rattus norvegicus with 6 samples.

Results

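The imprinted Dlk1-Dio3 region carries a large group of microRNA hairpins. Its members were taken from small RNA libraries of rat heart by name: every miRBase-named mature miRNA whose number is one of 44 numbers assigned to the region, with the letter, arm and locus suffix ignored. The rule found 82 of the 1191 mature IDs in the deposited table, 699 of which carry miRBase names and 492 of which are predicted entries. They come from 40 of the 44 numbers, because no entry was named miR-377, miR-544, miR-654 or miR-889.

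The study compared 3 normal rat hearts with 3 rat hearts taken after the left anterior descending coronary artery was tied for 0.5 h and the flow restored for another 0.5 h, an acute model of myocardial infarction with restored flow. All 6 hearts are labelled wild type. The normal hearts are labelled as controls, with no operation named. The sources used here do not give strain, sex, age or the part of the heart sampled.

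MicroRNAs of about 22 bases are cut from the 5′ (5p) or 3′ (3p) arm of a hairpin and guide silencing of messages, mainly through the seed, which is bases 2 to 8. In mammals the hairpins of the Dlk1-Dio3 region lie in long noncoding transcripts, Meg3, an RNA antisense to Rtl1, Rian and Mirg, that are made from the chromosome inherited from the mother. The protein-coding genes Dlk1, Rtl1 and Dio3 are expressed from the father's copy. These miRNAs are best known from brain, embryo and placenta, and in muscle they are more abundant early in life. In mouse skeletal muscle the transcription factor MEF2A acts on the cluster, and in mice blocking single members, among them miR-329, miR-487b, miR-494 and miR-495, improved the return of blood flow after hindlimb ischemia.

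The sequences that carry the results are given here 5′ to 3′ with the seed in capitals. The first lines are the mature sequences as the deposited table lists them, which are identical to RefSeq (GRCr8) for 80 of the 82 members, the exceptions being miR-127-5p and miR-136-5p, which had no RefSeq entry of that name in the table used. They are the 10 members with the highest mean level and miR-134-5p, the member with the lowest p.
miR-381-3p: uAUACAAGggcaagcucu
miR-127-3p: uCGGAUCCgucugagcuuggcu
miR-379-5p: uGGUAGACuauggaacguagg
miR-411-5p: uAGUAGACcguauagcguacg
miR-434-5p: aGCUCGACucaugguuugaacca
miR-409a-3p: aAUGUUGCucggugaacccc
miR-300-3p: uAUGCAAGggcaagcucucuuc
miR-541-5p: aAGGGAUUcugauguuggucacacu
miR-370-3p: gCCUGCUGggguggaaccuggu
miR-136-3p: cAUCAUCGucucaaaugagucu
miR-134-5p: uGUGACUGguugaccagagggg

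For some members the most abundant sequence in these hearts was another one. The deposited table writes those with T. The ones shown next are for the most counted member and for those with at least 50 counts in which the start, and so the seed, was shifted.
miR-381-3p, most abundant: tATACAAGggcaagctctctgt
miR-409a-3p, most abundant: gAATGTTGctcggtgaacccct
miR-434-5p, most abundant: gCTCGACTcatggtttgaact
miR-127-5p, as listed: cUGAAGCUcagagggcucugauu
miR-127-5p, most abundant: gAAGCTCAgagggctctgatt

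The cluster was detected in every heart, at a low level. Of the 82 members, 56 had counts, 24 had counts in all 6 libraries and 26 had none in any library. The normal libraries, replicates 1 to 3, held 6963312, 8259263 and 8429988 counts. The ischemia-reperfusion libraries, in the same order, held 1376947, 2186243 and 2814802. Members received 2695, 3604 and 3305 of these counts in the normal hearts and 607, 1108 and 958 after ischemia-reperfusion. As a share of all counts this was 0.0387%, 0.0436% and 0.0392% (95% Wilson intervals 0.0373% to 0.0402%, 0.0422% to 0.0451% and 0.0379% to 0.0406%) against 0.0441%, 0.0507% and 0.0340% (0.0407% to 0.0477%, 0.0478% to 0.0537% and 0.0319% to 0.0363%). The groups overlapped: ischemia-reperfusion replicate 2 was the highest and replicate 3 the lowest of all 6. The means were 0.0405% ± 0.00272 (SD, n = 3) in normal hearts and 0.0429% ± 0.00838 (SD, n = 3) after ischemia-reperfusion. These intervals, like all others on shares, cover counting error only.

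The libraries differed in ways that touch every comparison between the groups. Normal replicate 1 stood apart from the other normal libraries: the chi-square per degree of freedom between their counts was 1855 and 2550, against 199.5 between replicates 2 and 3, and the heart muscle miRNA miR-1-3p stood at 157700 CPM (counts per 1e6 counts) in it against 33640 and 29320 CPM. Without it 19 cluster members could be tested, miR-134-5p not among them, and none was called. Their median log2 fold change was -0.29, against -0.20 for the 23 members tested with it. Each ischemia-reperfusion library was shallower than each normal one, and predicted entries held 5.46% to 13.65% of its counts, against 1.09% to 1.29% in normal hearts. Relative to miRBase-named counts alone, the cluster held 0.0410% ± 0.00271 in normal hearts and 0.0474% ± 0.01003 after ischemia-reperfusion (SD, n = 3 each). All CPM are scaled with TMM factors, under which 1 count is worth 0.127 to 0.158 CPM in the normal libraries and 0.346 to 0.648 CPM in the others. On that scale the summed level of all members was 440.2 ± 17.5 CPM in the normal group against 393.2 ± 62.3 CPM in the other (SD, n = 3 each). The number of members listed was 43, 45 and 50 in normal hearts and 28, 37 and 38 after ischemia-reperfusion. Expected numbers at the depth of the smallest library were 31.8, 28.8 and 24.6 against 28, 29.1 and 29.7, and these ranges overlapped. They count a member as listed if 2 of its tags remain over all isoforms. A cut on each sequence, which would list fewer members, was not modelled.

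Of the marker lists, the one for heart muscle, the labelled tissue (miR-1-3p, miR-1b, miR-133a-3p, miR-208a-3p and miR-499-5p), summed to 194800 to 442200 CPM in all libraries. At an adjusted p of 0.05, 1 of its 5 members was lower and none was higher. A neuron and endocrine list of 9 miRNAs, tissues in which the cluster is also expressed, summed to 1389 to 1702 CPM in the normal group against 897.4 to 1163 CPM in the other, and 1 of its 4 tested members was lower. That gap came from miR-128-3p, at 978.4, 757.5 and 900.9 CPM against 375.5, 405.8 and 381.7 CPM, whereas miR-9a-5p was higher in each ischemia-reperfusion library (80.93 to 120.9 CPM) than in any normal one (72.96 to 77.31 CPM), and the neuronal miR-124-3p was at 0 in 5 of 6 libraries. The leukocyte list stood at 601.5 to 685.3 CPM against 488.8 to 593.2 CPM, with 1 member lower. The red cell list stood at 2525 to 2936 CPM against 1460 to 1889 CPM, also with 1 member lower. Its gap came from miR-486, at 2455, 2475 and 2868 CPM against 1273, 1444 and 1815 CPM. In contrast, miR-451-5p was higher in ischemia-reperfusion replicates 1 and 2 than in any normal library, and its groups overlapped. The remaining member, miR-144-3p, did not exceed 1.73 CPM in any library. The liver marker miR-122-5p stood at 30.4 to 82.6 CPM in the normal group and at 79.1 to 866.9 CPM in the other, and was called higher. The part of these differences in the cluster's values was not tested. In RNA from bulk heart tissue, fewer cells of a type and less RNA per cell cannot be told apart.

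miR-381-3p alone made up most of the cluster. It held 6951 counts over the 6 libraries, and 48.2%, 56.6% and 61.9% of all member counts in normal replicates 1 to 3 against 61.6%, 61.0% and 54.1% after ischemia-reperfusion. Its level was 204.7, 259.8 and 270.3 CPM in normal replicates and 242.1, 277.9 and 179.0 CPM in those with ischemia-reperfusion. The groups overlapped fully, with the highest and the lowest library both from the ischemia-reperfusion group. Its hairpin is the 61-base Mir381 at chr6:134562381-134562441 on the plus strand of GRCr8 (RefSeq), where the listed mature sequence, in capitals here, ends 2 bases before the hairpin annotation does.
Mir381 hairpin: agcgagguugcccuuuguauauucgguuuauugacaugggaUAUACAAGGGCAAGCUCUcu

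The next 3 members stood below 32 CPM in every library. miR-127-3p, which is processed from the RNA antisense to Rtl1 and in mouse cleaves the Rtl1 message, stood at 31.4, 30.3 and 31.6 CPM in the normal group against 21.4, 23.9 and 21.4 CPM after ischemia-reperfusion. All 3 ischemia-reperfusion values lay below all 3 normal ones, and the replicates of each group lay close together. miR-379-5p, the first miRNA of the Mirg end, stood at 24.7, 23.95 and 18.4 CPM against 15.5, 18.5 and 20.4 CPM, with overlap. miR-411-5p, from the hairpin that follows it, stood at 17.7, 17.96 and 15.2 CPM against 11.01, 9.46 and 14.5 CPM, with no overlap. Only miR-381-3p, miR-127-3p and miR-379-5p had at least 20 counts in every library, so for all others counting error in the shallow libraries is large.

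The other members of the 10 highest had group means between 4 and 15 CPM. miR-434-5p stood at 12.9, 15.5 and 13.9 CPM against 15.5, 16.5 and 5.18 CPM, where ischemia-reperfusion replicate 3 alone was low. miR-409a-3p stood at 14.2, 8.66 and 7.01 CPM against 2.59, 7.81 and 6.91 CPM. miR-300-3p stood at 9.30, 7.77 and 4.63 CPM against 9.71, 13.98 and 3.80 CPM. Both pairs of groups overlapped. miR-541-5p stood at 10.2, 7.52 and 7.40 CPM against 6.48, 6.58 and 2.42 CPM, with every ischemia-reperfusion value below every normal one. miR-370-3p, which in human liver cells lowers CPT1A, an enzyme of fatty acid oxidation,, stood at 4.89, 7.90 and 5.82 CPM against 7.12, 9.46 and 10.4 CPM. miR-136-3p, from the RNA antisense to Rtl1, stood at 4.41, 5.48 and 4.10 CPM against 4.53, 7.81 and 5.18 CPM. For both of these the ischemia-reperfusion mean was the higher one and the groups overlapped.

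**Figure D1:**
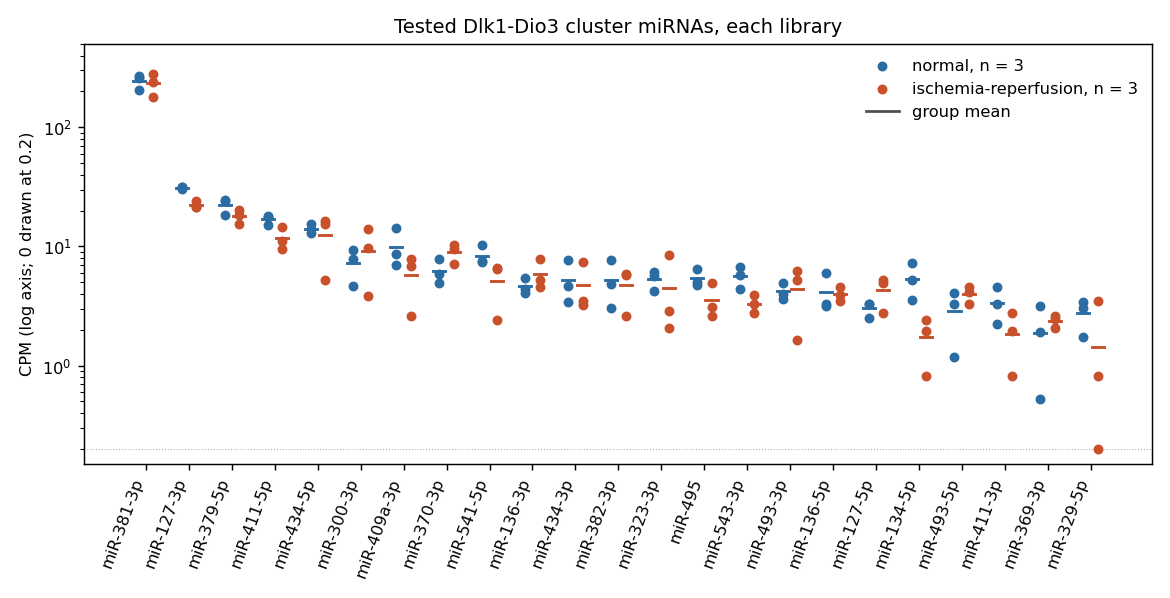
CPM (log axis) of the 23 tested cluster miRNAs in each of the 3 normal (blue) and 3 ischemia-reperfusion (orange) libraries, with the group mean as a line; a library with no listed count is drawn at 0.2. miR-381-3p stands at 179.0 to 277.9 CPM in all 6 libraries and every other member below 32 CPM.

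Of 21 members on a list with published roles, 11 could be tested and 10 were too low. miR-494-3p, which protected mouse hearts from ischemia-reperfusion when overexpressed, had 19, 14 and 4 counts in normal hearts and 0, 8 and 4 after ischemia-reperfusion. miR-433-3p, linked to cardiac fibrosis in rodents, had 14, 10 and 9 counts against 0, 5 and 7. miR-410-3p, which with miR-495 promotes division of newborn rat cardiomyocytes in culture, had 8, 6 and 3 counts against 2, 2 and 0. Such counts give no usable fold in libraries of 1376947 to 2814802 counts. The others too low to test were miR-382-5p, with 40 counts in all, miR-376b-5p with 31, miR-376c-3p with 29, miR-329-3p with 22, miR-154-5p with 12, miR-485-5p with 8 and miR-539-5p with 6. The smallest count in the table is 2, so tags seen once appear to be left out. If this holds for each sequence, a value of 0 can hide several tags, and sums over isoforms miss some. The effect of this on the shallower libraries was not tested, and no upper limit is drawn from a 0.

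The hairpins fall into 2 stretches of rat chromosome 6. In RefSeq (GRCr8) 52 hairpins lie from Mir770 to Mir410 over 281.8 kb, and 39 of them belong to members, 38 on the plus strand. The member hairpins mir-376b, mir-485, mir-540 and mir-665 were not matched to a position. The stretch from Mir770 to Mir370 covers 56.5 kb and holds the hairpins of Meg3, of the Rtl1 antisense RNA and Mir370 near Rian. A stretch of 188.9 kb, in which no member hairpin was placed, then separates Mir370 (chr6:134354491-134354569, plus strand) from Mir379 (chr6:134543445-134543529, plus strand). From Mir379 to Mir410 the Mirg end packs its hairpins into 36.4 kb.

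Levels varied from hairpin to hairpin within each stretch. The Meg3 and Rtl1 end has 20 members, 14 of them with counts, and they summed to 74.0 ± 3.43 CPM in the normal group against 64.6 ± 8.53 CPM in the other (SD, n = 3 each). The Mirg end has 60 members, 40 with counts, and summed to 359.8 ± 15.0 CPM against 318.7 ± 54.3 CPM (SD, n = 3 each). Without miR-381-3p its sum was 114.9 ± 24.8 CPM (90.27 to 139.8) against 85.7 ± 7.47 CPM (78.99 to 93.74), and the groups overlapped. Both arms of the single Rian hairpin summed to 6.39 ± 1.38 CPM (5.20 to 7.90) against 9.92 ± 1.36 CPM (8.42 to 11.1) (SD, n = 3 each). The groups did not overlap, but this rests on 2 counts of miR-370-5p in ischemia-reperfusion replicate 1, since the groups of miR-370-3p alone overlapped. Those 2 counts are of a 15-base sequence that starts 4 bases after the listed miR-370-5p and has 1 mismatch to it. The exact sequence had 0 counts in every library, so the assignment to this arm is uncertain.

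**Figure D2:**
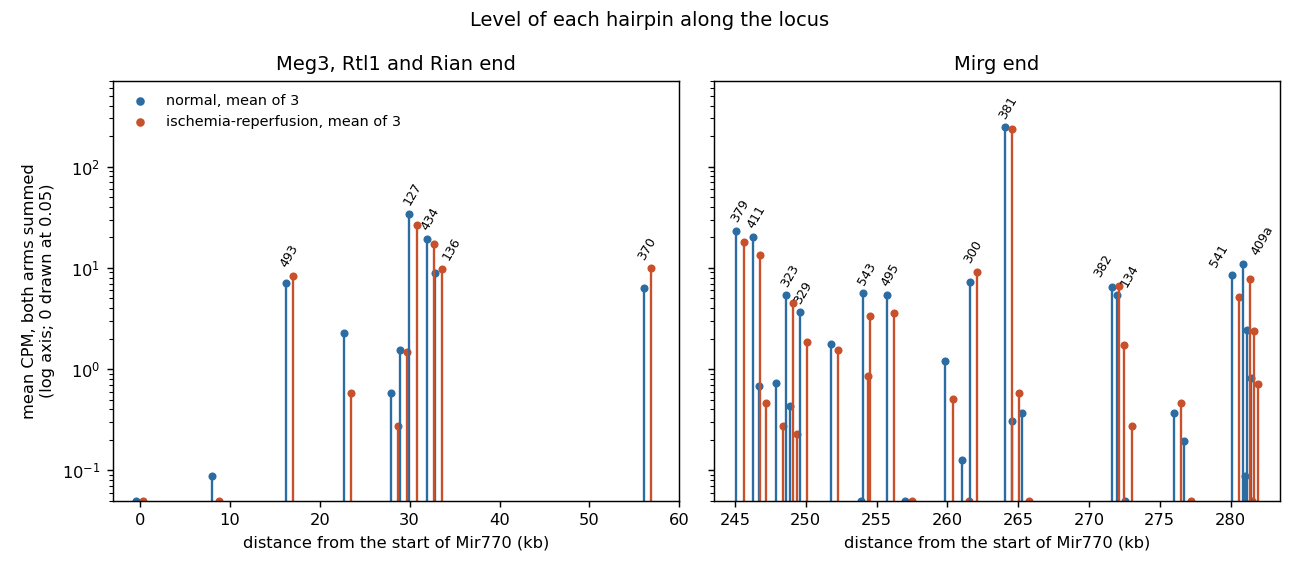
Mean CPM of member hairpins with a position (both arms summed, log axis, 0 drawn at 0.05) against distance in kb from the start of Mir770. Normal hearts are blue and ischemia-reperfusion hearts orange, each a mean of 3. Hairpins at or above 3 CPM are named by number, and the stretch of 188.9 kb between the panels is left out. The hairpins mir-376b, mir-485, mir-540 and mir-665 had no position, and mir-299b, with no counts, is not drawn. The Mir381 hairpin stands above every other one in both groups, and levels vary from hairpin to hairpin within each stretch.

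Hairpins of the same stretch that no rule number covers were also examined. Of 11 such miRNAs listed in the table, 2 had counts. miR-341, from a hairpin between Mir136 and Mir370, stood at 6.30, 7.26 and 5.55 CPM in the normal group against 3.24, 4.93 and 2.76 CPM in the other. The groups did not overlap, and its log2 fold change was -0.80 ± 0.43 (SE; 95% interval -1.81 to 0.21), with an adjusted p of 0.181 in edgeR's quasi-likelihood test. miR-3592, on the opposite strand, had 0, 2 and 2 counts in normal hearts and 5, 0 and 0 after ischemia-reperfusion.

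The sequence behind each count differed often from the one listed. The deposited table gives, beside all isoforms, the counts of the exact listed sequence and of the most abundant one. Among the 24 members with at least 50 counts over the 6 libraries, the listed sequence was the most abundant in 10 (41.7%), and among all 318 named miRNAs with that many counts in 38.4%. In 7 of the other 14 members the most abundant sequence had the same start and ran on at the 3′ end, in 4 it had the same start and stopped earlier, and in 3 the start was shifted. The exact listed sequence held a median of 24.6% of a member's counts and the most abundant one 55.4%. The median exact share over named miRNAs was 15.9%.

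miR-381-3p was never counted as listed. The exact 18-base sequence had 0 counts in all 6 libraries, and the most abundant sequence, with the same start and seed and 4 more bases, held 71.8%, 68.0% and 72.2% of its counts in normal hearts and 69.8%, 66.9% and 72.6% after ischemia-reperfusion. The ranges of the shares overlapped between the groups. The last 2 of the 4 bases lie beyond the RefSeq hairpin shown above. Of miR-127-3p, 13.99% of counts were exact and 42.6% belonged to a form with 1 more base. miR-370-3p, in contrast, was 74.6% exact, and miR-493-5p and miR-369-3p were 85.4% and 85.5% exact.

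A shifted start changes the seed. For miR-409a-3p the most abundant sequence began 1 base before the listed one, and the exact sequence had 0 counts in every library. That form held 41.3% of its 254 counts. For miR-434-5p the start lay 1 base later (21.9% of counts, against 6.19% exact), and for miR-127-5p 2 bases later (34.7%, against 25.3% exact). miR-136-5p was the other member of this group with no exact count; its most abundant form stopped 1 base early and held 66.4%. In miR-434-5p and miR-434-3p the most abundant sequence also differs from the listed one in its last base, and for miR-434-3p its 27.8% is below the 29.2% that is exact.

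**Figure D3:**
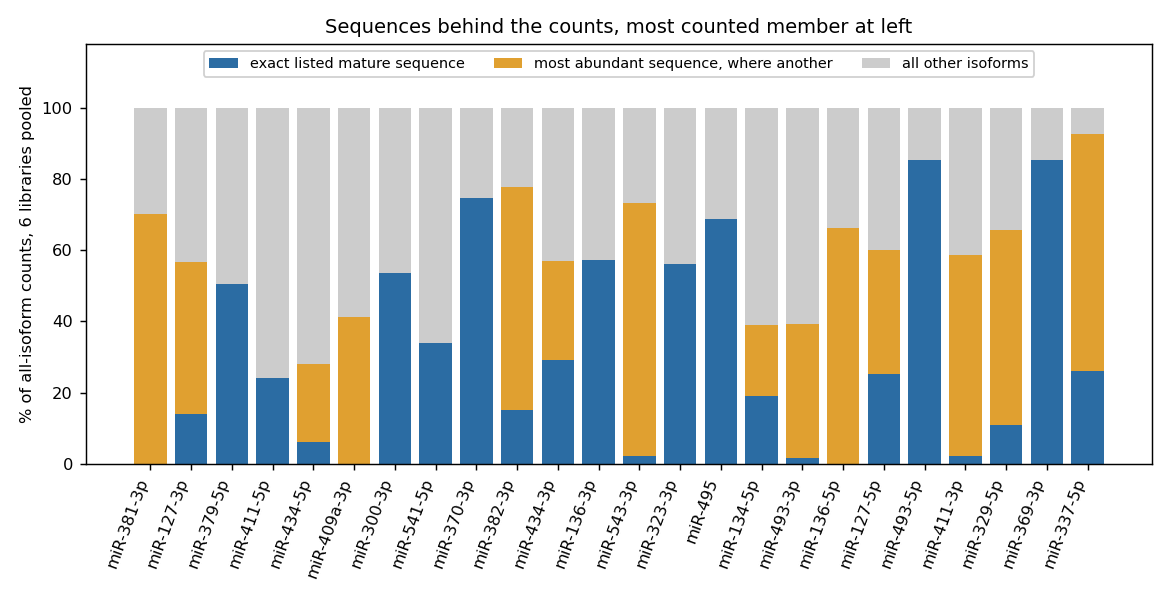
Share of all-isoform counts (%, 6 libraries pooled) that is the exact listed mature sequence (blue), the sequence given as most abundant where that is another one (yellow) and all other isoforms (grey), for the 24 members with at least 50 counts, ordered by count. miR-381-3p, miR-409a-3p and miR-136-5p have no blue part, and miR-493-5p and miR-369-3p are 85.4% and 85.5% blue.

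Members rarely share a seed. Among the listed sequences, 5 seeds occur in more than 1 member. The seed AUACAAG belongs to miR-381-3p and to miR-539-3p, which together had 6953 counts, 2 of them miR-539-3p. The others are UGGAUAU (miR-376b-5p and miR-376c-5p), AUGUGGG (miR-299a-3p and miR-299b-3p), GGUUUAC (miR-299a-5p and miR-299b-5p) and GGUUGUC (miR-410-5p, miR-494-5p and miR-496-5p), none with more than 31 counts. Close relatives need not share a seed: read against the 22-base form of miR-381-3p, miR-300-3p differs at A4G, G21U and U22C, counted from 1 at the 5′ end, of which the first lies in the seed. The most abundant forms of miR-411-3p and miR-379-3p share a seed and differ at C10U, whereas the listed miR-379-3p starts 1 base earlier and has another seed. Tags of such near copies could be assigned to either. The mir-434-1 and mir-434-2 entries hold identical counts and were used once.

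Counts fell on 1 arm or on both. Both arms are listed for 39 hairpins, of which 36 had counts: 16 on both arms, 14 on the 3p arm alone and 6 on the 5p arm alone. Of 24 hairpins with at least 20 counts in all, 14 had counts on both arms and 10 on 1 arm, and 16 had more 3p and 8 more 5p. Only 5 had at least 20 counts in every library.

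Among those 5, the dominant arm was the same in all 6 libraries. The mir-381 hairpin was 100% 3p in every library. The mir-379 hairpin was nearly all 5p, with 3p shares of 5.42%, 3.59% and 1.42% in normal hearts and 0% in each ischemia-reperfusion library. Wilson upper bounds of the latter were 13.8%, 7.87% and 6.11%. The ranges did not overlap, but each of these bounds lay above every normal share, and the difference was not tested. The mir-411 hairpin had 3p shares of 15.8%, 20.3% and 12.9% against 15%, 8% and 16%, and the mir-434 hairpin 37.4%, 18.1% and 25% against 17.2%, 31.03% and 40%. Both overlapped between groups.

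The mir-127 hairpin, with the opposite arm in excess, also differed in range between the groups. Its 3p share was 92.6%, 90.2% and 90.5% in normal hearts (Wilson 88.3% to 95.4%, 86.0% to 93.2% and 86.4% to 93.5%) and 80.5%, 82.9% and 88.6% after ischemia-reperfusion (66.0% to 89.8%, 72.4% to 89.9% and 79.0% to 94.1%). The means were 91.1% ± 1.296 and 84.0% ± 4.15 (SD, n = 3 each). By the most abundant sequence of each arm the groups overlapped, at 94.68%, 90.1% and 91.8% against 100%, 79.17% and 88.89%. By all isoforms the ranges did not overlap, while the interval of each ischemia-reperfusion library overlapped that of each normal library. With 3 hearts against 3 a two-sided exact permutation test cannot go below 0.1, so none was made.

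**Figure D4:**
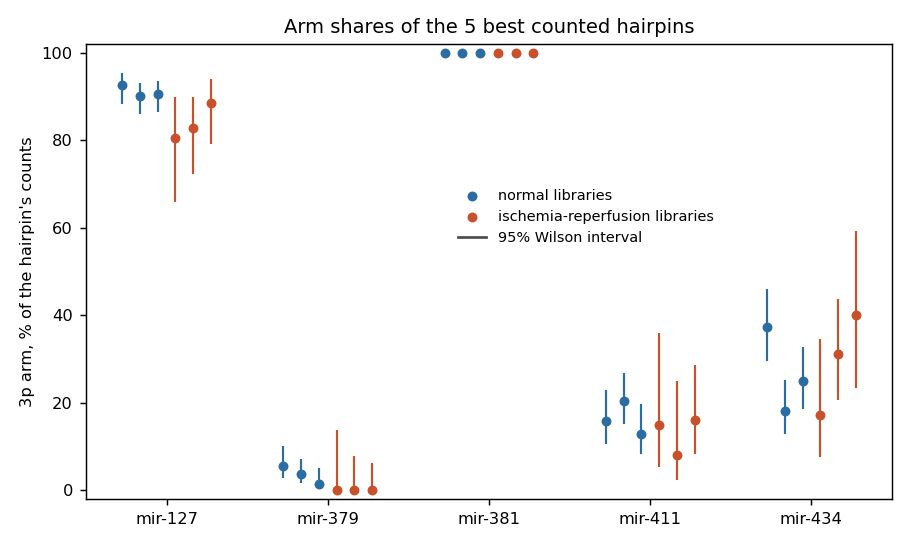
3p arm as a percentage of a hairpin's counts in each normal (blue) and ischemia-reperfusion (orange) library, replicates 1 to 3 from left to right, with 95% Wilson intervals as bars, for the 5 hairpins with at least 20 counts in every library. The shares of the groups do not overlap for mir-127, at 90.2% to 92.6% against 80.5% to 88.6%. Nor do they for mir-379, at 1.42% to 5.42% against 0%. The intervals overlap between the groups for both hairpins.

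Whether ischemia-reperfusion changed the cluster was tested across the whole table, and no member passed. In edgeR's quasi-likelihood test with Benjamini-Hochberg adjustment over 524 entries, 23 members could be tested, 0 were higher and 0 were lower at an adjusted p of 0.05. The same test called 42.7% of all entries (33.4% higher and 9.35% lower), 14.8% of the 305 named miRNAs (0.984% higher and 13.8% lower) and 5.67% of the 141 named miRNAs with a mean under 30 CPM (0.709% higher and 4.96% lower), the range in which nearly all members lie. At an unadjusted p of 0.05, 1 of 23 members (4.35%) passed, against 11.3% of those low named miRNAs, 25.2% of all named ones and 48.9% of all entries. DESeq2 and limma-voom also called 0 members. Groups that did not overlap in CPM were found for 5 of 23 members (21.7%), all lower after ischemia-reperfusion. Such groups were found for 33.3% of the low named miRNAs (31.2% lower), 41% of all named ones (38.7% lower) and 59.4% of all entries (25.2% lower). A miss of the threshold does not show that levels were equal, and the intervals below give what the data allow.

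The member with the lowest p was miR-134-5p, which in rat neurons restrains dendritic spine growth. It had 46, 41 and 27 counts in normal hearts and 3, 2 and 7 after ischemia-reperfusion, or 7.25, 5.22 and 3.57 CPM against 1.94, 0.822 and 2.42 CPM. The groups did not overlap. Its log2 fold change was -1.61 ± 0.57 (SE; 95% interval -2.96 to -0.25), with an unadjusted p of 0.0262 from edgeR's quasi-likelihood test. The adjusted p was 0.0580. It was called lower (adjusted p = 0.0189) with upper-quartile factors in edgeR. Over the other alternatives on counts that tested it, by edgeR, DESeq2 or limma, the adjusted p was 0.0601 to 0.2865. It was 0.673 by limma on the authors' normalized values, to which 10 was added before taking logs. It was too low to test without normal replicate 1 or 2, and with exact or most abundant sequence counts. Its exact sequence had 6, 8 and 2 counts in normal hearts against 3, 2 and 3 in the shallower ischemia-reperfusion libraries. Its most abundant sequence had 6, 10 and 7 counts against 0, 0 and 2. In ischemia-reperfusion replicates 1 and 2 all its counts were exact, against 7.41% to 19.5% in normal hearts. The gap in CPM thus lay in the other isoforms. Whether tags left out of the shallower libraries add to it was not tested.

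The 3 next members by p in that direction were miR-127-3p, miR-543-3p and miR-411-5p. For miR-127-3p the log2 fold change was -0.48 ± 0.23 (SE; 95% interval -1.04 to 0.07; adjusted p = 0.144 in edgeR), and it too was called with upper-quartile factors (-0.99, adjusted p = 0.0213). miR-543-3p stood at 6.78, 5.73 and 4.36 CPM against 3.89, 3.29 and 2.76 CPM, which gave -0.78 ± 0.42 on the log2 scale (adjusted p = 0.190). The groups of both did not overlap. For miR-411-5p the change was -0.53 ± 0.34 on the log2 scale (adjusted p = 0.248). The SD of miR-127-3p between normal hearts was 2.17% of its mean, less than the 6.66% that counting gives alone, and that of miR-381-3p was 14.4%, against 2.36% from counting.

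For miR-381-3p, where counting error is small, the log2 fold change was -0.07 ± 0.22 (SE; 95% interval -0.59 to 0.44; adjusted p = 0.802 in edgeR). Its sign turned with the scaling, to 0.29 with TMM factors taken from named miRNAs and 0.18 with total counts.

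The 4 members with the lowest p among those with a positive change were miR-370-3p, miR-127-5p, miR-136-3p and miR-493-5p, and none passed. The change of miR-370-3p was 0.54 ± 0.40 on the log2 scale (SE; 95% interval -0.40 to 1.48; adjusted p = 0.308 in edgeR). miR-127-5p, the minor arm of mir-127, stood at 2.52, 3.31 and 3.30 CPM against 5.18, 4.93 and 2.76 CPM and had 0.47 ± 0.45 (adjusted p = 0.430), while its partner arm had -0.48. miR-136-3p had 0.33 ± 0.42 (adjusted p = 0.536) and miR-493-5p 0.47 ± 0.57 (adjusted p = 0.524). Of these, miR-370-3p alone kept a positive sign under upper-quartile factors, at 0.06.

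Among the other members in the 10 highest, miR-541-5p and miR-409a-3p had negative changes of -0.72 ± 0.50 and -0.75 ± 0.53 on the log2 scale (SE), with adjusted p of 0.282 and 0.292 in edgeR. The changes of miR-379-5p, miR-434-5p and miR-300-3p were within 1 SE or close to it, at -0.30 ± 0.29, -0.20 ± 0.49 and 0.33 ± 0.57, with adjusted p of 0.435, 0.753 and 0.642 in edgeR. miR-495, for which inhibition in mice was named above, stood at 6.46, 4.71 and 5.02 CPM against 2.59, 4.93 and 3.11 CPM, with overlap, with a log2 fold change of -0.59 ± 0.44 (adjusted p = 0.322 in edgeR). miR-434-3p stood at 7.72, 3.44 and 4.63 CPM against 3.24, 7.40 and 3.46 CPM, also with overlap (-0.15 ± 0.54, adjusted p = 0.845 in edgeR). The 7 tested members not named so far in this comparison, miR-382-3p, miR-323-3p, miR-493-3p, miR-136-5p, miR-411-3p, miR-329-5p and miR-369-3p, had log2 fold changes from -0.85 to 0.35.

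As a list, the 23 tested members had a median log2 fold change of -0.20, from -1.61 to 0.54, with 7 above 0 and 16 below. The median was -0.40 over the named miRNAs and -0.17 over all 524 entries. At the Meg3 and Rtl1 end the 8 tested members had a median of -0.01 and at the Mirg end the 14 tested ones had -0.56; the difference between the ends was not tested. These values depend on the scaling. The median over all entries was -0.06 with RLE factors, -0.67 with upper-quartile factors, 0.07 with total counts and 0.17 with factors from named miRNAs, and the members moved with it, to medians of -0.06, -0.76, 0.06 and 0.18. Their split turned from 7 above and 16 below 0 to 14 above and 9 below with the factors from named miRNAs. Under each of these scalings the members' median lay above that of the named miRNAs, by 0.14 to 0.24. New factors move members and named miRNAs nearly alike, so these differences are not separate support for one another. With other counts, members minus named was -0.066 for exact sequences (10 members tested) and 0.053 for the most abundant ones (17 members tested).

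**Figure D5:**
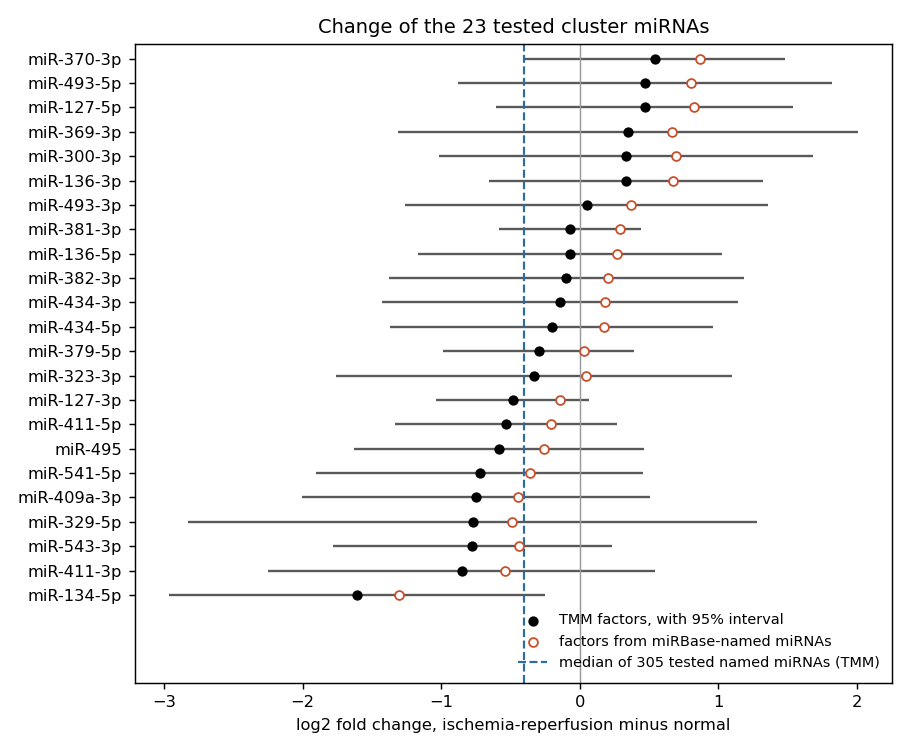
log2 fold change (ischemia-reperfusion minus normal) of the 23 tested members with TMM factors (black, bars give the 95% interval) and with factors taken from named miRNAs (open circles); the dashed line is the median of the 305 tested named miRNAs, -0.40. The interval of miR-134-5p, -2.96 to -0.25, is the one that leaves out 0, and the open circles lie to the right of the black points for all 23 members.

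In the authors' deposited table of the comparison, 32 of the 56 counted members appear. The lowest false discovery rate among them is 0.197, for miR-127-5p, with a fold of 1.23 and p = 0.0232 in the authors' deposited table. Its folds for members run from 0.889 to 1.29, and they are ratios of means to which 10 had been added. miR-370-3p has a fold of 1.29 in the authors' deposited table and miR-134-5p one of 0.923.

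The most abundant member of the cluster is not among those 32. Every one of the 327 named entries in the authors' deposited table has a normalized value for its exact listed sequence, and the 175 other named entries with counts have none. Of the 24 counted members so left out, 5 were testable here: miR-381-3p, miR-409a-3p, miR-543-3p, miR-136-5p and miR-411-3p. The 24 held 62.7% of all member counts. The listed sequence of miR-381-3p is the 18-base one with 0 exact counts in every library.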

How the data were processed

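Small RNA (about 15 to 35 nt, per the labels' protocols) was sequenced from 6 rat hearts. Per the file headers, the deposited table holds raw counts of tags by mature miRNA and library, counted once for all isoforms, once for the most abundant sequence and once for the exact mature one. The authors' normalized values are whole numbers treated as a score. The authors' deposited comparison gives a score per group, a fold ratio, a p-value and a q-value. Novoalign 2.07.11 is named in the submitters' processing notes; build and miRBase release were not given in the sources used here. Another 18 columns of per-sample values were not used.

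All-isoform counts were used, with the highest-total row per ID and blanks as 0. R 4.3.3 with edgeR 4.0.16 ran filterByExpr (minimum count 10), TMM and the robust quasi-likelihood test on group, with Benjamini-Hochberg adjustment over all entries. A run on simulated counts had changes drawn at random in both directions. It therefore does not cover scaling where calls run mostly upward, as they did over all entries here. DESeq2 1.42.0, limma 3.58.1, other scalings, other count columns and left-out libraries were alternatives. Sequences and hairpin positions are from RefSeq (GRCr8).

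The members and lists were chosen with earlier results of these data known. Members named: any past an adjusted p of 0.05, the 10 highest by mean CPM, the 4 lowest p in each direction, and a list of 23 names with published roles, 21 of them found; others were named after their values were seen, as were the minimums of 50 counts (isoforms) and 20 counts (arms) over all libraries. The labels only number the hearts, so the p-values rest on the spread between them, which may be partly technical.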

Additional observations from a re-analysis of the deposited data

How the results depend on the processing

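No member was called higher under any alternative run. The number called lower was 2 with upper-quartile factors (miR-127-3p and miR-134-5p), 0 to 1 with each library left out, and 0 otherwise. The 1 was miR-337-5p without ischemia-reperfusion replicate 3, with 18, 16 and 15 counts against 0 and 0 (5 in the library left out). The median log2 fold change of the tested members (-0.20) was -0.76 with upper-quartile factors, 0.058 with total counts and 0.18 with factors from named miRNAs. It was 0.15 with named miRNAs fitted alone and -0.50 over 56 members without the filter. With the authors' normalized values it was 0.012, but 10 was added to these before taking logs, which draws changes of low members toward 0. With a library left out it was -0.34 to 0.15, and above 0 without ischemia-reperfusion replicate 3.

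The sign turned for these named members. miR-381-3p was 0.059 with RLE, 0.18 with total counts, 0.29 with factors from named miRNAs, 0.30 with these fitted alone, 0.058 in DESeq2, 0.17 with the authors' values and -0.27 to 0.22 with a library left out. In the same settings where they turned, miR-379-5p was 0.031 (factors from named), 0.046 (named alone) and 0.0005 (authors' values). miR-434-5p was 0.058 (total), 0.18 (factors from named), 0.15 (named alone), 0.056 (most abundant sequence), 0.012 (authors' values) and -0.49 to 0.31 with a library left out. miR-434-3p was 0.11, 0.18, 0.21 and 0.036 with total counts, factors from named, named alone and the authors' values, and -0.65 to 0.17 with a library left out. With upper-quartile factors miR-300-3p was -0.22 (-0.14 to 0.84 with a library left out), miR-136-3p -0.16, miR-127-5p -0.060 and miR-493-5p -0.039. The causes were not tested.

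Same-numbered hearts did not deviate together (r = -0.24, 0.01 and -0.16 over 524 entries), and differently numbered ones had r from -0.12 to 0.22. The numbers thus gave no sign of pairing, but so few hearts cannot exclude pairs or batches. With the replicate block 0 members were higher and 0 lower, the median was -0.29, and no call on a member changed.

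The cluster's share of counts was 0.0252% and 0.0300% (normal and ischemia-reperfusion) with exact sequences, 0.0615% and 0.0703% with the most abundant ones, and 0.0390% to 0.0414% and 0.0391% to 0.0474% with a library left out. More 3p than 5p counts were found in 2 of 5 hairpins, in 16 of 24 with the minimum taken over all libraries, and in 2 to 5 with a library left out (5 of 8 without ischemia-reperfusion replicate 1). By exact sequences the mir-127 3p share was 87.2% and 65.9% and the mir-434 one 58.1% and 66.7%; by the most abundant sequences the mir-127 share was 92.2% and 89.4%. The median exact share was 13.99% over the 3 members with 20 counts in every library, 0% with 100 counts (miR-381-3p alone) and 24.6% with 50 counts in all. Depth limits the rest: only 3 members reach 20 counts in every library.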
